A study of Mus musculus with 99 samples.

Results

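Genes that mark the cells of the brain's coverings and of its vessel walls were followed through 4 brain regions and 7 conditions of a mouse stress study. They are 34 of the 37991 genes in the count table, found by matching each Ensembl ID to a listed symbol, and they form 2 lists that were kept apart. The meningeal list has 22 genes (Dcn, Lum, Col1a1, Col1a2, Col3a1, Col6a1, Col6a2, Col6a3, Aldh1a2, Slc6a13, Slc22a6, Igf2, Igfbp2, Fmod, Ogn, Bgn, Islr, Serping1, Mgp, Fn1, Gjb2 and Slc13a4). The mural list has 12 (Pdgfrb, Rgs5, Vtn, Kcnj8, Abcc9, Acta2, Tagln, Myh11, Anpep, Cspg4, Notch3 and Mcam). RNA sequencing covered the basolateral amygdala, the ventral hippocampus, the nucleus accumbens and the prefrontal cortex in 99 libraries, each made from tissue of 2 pooled mice. The study used chronic social defeat, in which a mouse is repeatedly confronted with an aggressor and is then classed by its behaviour as susceptible or resilient, and the control mice form a group of their own. In each region there were 3 libraries of susceptible mice given ketamine that responded, 3 of susceptible mice given ketamine that did not, 3 of susceptible mice given imipramine (spelled impramine in the group labels) that responded, 4 of susceptible mice given imipramine that did not, 4 of resilient mice given saline, 3 of susceptible mice given saline and 5 of control mice given saline, except the hippocampus with 4 control libraries. Strain, sex, age, dose and the time between drug and dissection are not given in the labels used here. Nothing in the labels ties libraries of different regions to the same mice. Regions may still come from the same mice, and the fits over several regions treated all libraries as independent. The p-values measure the spread between pooled samples.

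The meninges wrap the brain in fibroblast layers that lay down collagens and small leucine-rich proteoglycans, carry solute transporters and connexins, and supply retinoic acid and growth factors to the tissue below. Fibroblasts of the same kind also follow larger vessels into the tissue. Mural cells sit on the outside of brain vessels: pericytes on capillaries depend on platelet-derived growth factor signals from the endothelium through Pdgfrb, and smooth muscle cells on arterioles contract through Acta2, Tagln and Myh11. Several members are not restricted to these cells: choroid plexus epithelium makes Igf2, Igfbp2 and Slc13a4, oligodendrocyte precursors make Cspg4, and endothelium makes Mcam. In bulk samples, fewer cells of a type and less RNA per cell cannot be told apart.

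The promoters of 4 members on which the condition results turn are shown because Aldh1a2, Col1a2 and Gjb2 were called together in the hippocampus and Mcam in the prefrontal cortex. Each window runs from 250 bases before to 50 after the gene's start, as given by RefSeq for build GRCm38.p6, whereas the counts were made on NCBIM37. Capitals mark the letters CCAAT and GGGCGG on either strand (ATTGG and CCGCCC when read from the other), and 0 bases belonged to both.
Aldh1a2 chr9:71215539-71215838 (plus strand): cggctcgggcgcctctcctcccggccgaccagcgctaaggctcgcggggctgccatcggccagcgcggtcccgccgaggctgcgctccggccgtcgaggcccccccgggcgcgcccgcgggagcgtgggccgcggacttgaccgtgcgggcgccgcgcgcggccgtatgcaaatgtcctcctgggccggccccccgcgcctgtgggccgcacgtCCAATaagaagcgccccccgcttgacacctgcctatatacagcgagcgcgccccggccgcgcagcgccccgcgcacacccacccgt
Col1a2 chr6:4505368-4505667 (plus strand): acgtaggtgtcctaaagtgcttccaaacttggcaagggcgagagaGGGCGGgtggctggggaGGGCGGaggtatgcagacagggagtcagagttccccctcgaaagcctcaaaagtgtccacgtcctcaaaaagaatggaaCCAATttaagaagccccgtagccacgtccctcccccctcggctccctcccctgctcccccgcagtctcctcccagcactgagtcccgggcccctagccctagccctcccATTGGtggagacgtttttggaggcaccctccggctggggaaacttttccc
Gjb2 chr14:57104653-57104952 (minus strand): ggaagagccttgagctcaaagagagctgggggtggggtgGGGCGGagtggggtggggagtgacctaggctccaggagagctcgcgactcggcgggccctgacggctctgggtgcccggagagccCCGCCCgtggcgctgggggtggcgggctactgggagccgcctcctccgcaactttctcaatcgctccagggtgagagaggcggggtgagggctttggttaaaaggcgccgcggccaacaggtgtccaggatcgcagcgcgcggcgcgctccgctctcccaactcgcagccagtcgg
Mcam chr9:44134408-44134707 (plus strand): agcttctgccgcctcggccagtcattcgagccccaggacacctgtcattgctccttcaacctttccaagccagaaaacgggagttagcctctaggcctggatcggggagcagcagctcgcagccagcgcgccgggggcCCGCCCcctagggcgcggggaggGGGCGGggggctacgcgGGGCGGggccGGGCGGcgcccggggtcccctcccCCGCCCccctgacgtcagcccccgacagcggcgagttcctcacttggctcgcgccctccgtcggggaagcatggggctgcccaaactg
The Aldh1a2 window held 1 CCAAT and 0 GGGCGG, the Col1a2 window 2 of each, the Gjb2 window 0 CCAAT and 2 GGGCGG, and the Mcam window 0 CCAAT and 5 GGGCGG. A window was matched for 16 of 22 meningeal members, of which 5 held CCAAT and 7 held GGGCGG. For the mural members it was matched for 9 of 12, of which 1 held CCAAT and 5 held GGGCGG. Among 27025 promoters of the same length, 37.9% held CCAAT and 35.9% held GGGCGG. Lum, Col1a1, Fn1, Myh11, Pdgfrb, Dcn, Tagln, Serping1 and Mgp were not matched. These are letter matches and describe the window only.

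Library totals ran from 14459028 to 59187954 counts (median 31086418). All 34 members passed the filter on low counts in each region, and 0 of them had a library without a count. Levels are given as CPM, a gene's counts relative to its library's total, scaled by the trimmed mean of M-values (TMM) over all 99 libraries. A gene was called when its adjusted p in edgeR's quasi-likelihood F-test, corrected over every gene tested by the Benjamini-Hochberg method, was below 0.05. Each difference is a fitted log2 fold change, followed by its SE (standard error). Some libraries stood apart on genes of other tissue. In the hippocampus, ketamine responder replicates 1 and 2, ketamine non-responder replicate 2 and resilient replicate 1 had a mean choroid plexus marker level above 2 log2 CPM. Elsewhere that level was passed by ketamine responder replicate 2 (4.87), imipramine responder replicate 1 (3.33) and control replicate 4 (3.11) of the amygdala, and by susceptible replicate 2 of the prefrontal cortex (2.01). Imipramine responder replicate 3 of the nucleus accumbens and replicate 2 of the amygdala were low in basement membrane genes, at mean log2 CPM of 3.22 and 3.39.

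In control mice the meningeal genes were highest in the prefrontal cortex, while the mural list was mixed, with some members called over the regions and others not. The mean log2 CPM over the 22 meningeal members was 3.46 ± 0.21 in prefrontal cortex (SD, n = 5). It was 2.29 ± 0.452 in nucleus accumbens (n = 5), 2.30 ± 0.117 in hippocampus (n = 4) and 2.31 ± 0.305 in amygdala (n = 5). For the 12 mural members it was 3.83 ± 0.084, 3.95 ± 0.11, 3.85 ± 0.034 and 3.75 ± 0.124 in the same order of regions. An F-test over the 4 regions called 22 of 22 meningeal and 7 of 12 mural members. This test called 72.9% of all genes, so the count of meningeal members is read beside a high background. The mural members it did not call were Rgs5, a regulator of G protein signalling used as a pericyte marker, Vtn, which encodes vitronectin, Kcnj8 and Abcc9, which encode the subunits of the vascular ATP-sensitive potassium channel, and Myh11, a smooth muscle myosin. Per kilobase of exon, Vtn stood at 26.1 ± 2.91, 24.9 ± 1.97, 23.8 ± 0.541 and 23.8 ± 1.94 CPM per kb in prefrontal cortex, nucleus accumbens, hippocampus and amygdala, and Rgs5 at 20.7 ± 2.28, 17.6 ± 3.25, 21.7 ± 2.37 and 19.3 ± 3.1 (SD). On that scale Pdgfrb, the receptor for platelet-derived growth factor, had 4.9 ± 0.393, 5.41 ± 0.473, 5.35 ± 0.254 and 4.4 ± 0.119, below both in each region. Of the smooth muscle genes, Acta2 had 4.14 ± 0.674, 3.44 ± 0.601, 5.49 ± 0.297 and 3.8 ± 1.04 CPM per kb, Tagln 4.28 ± 0.71, 5.89 ± 0.902, 2.71 ± 0.23 and 2.97 ± 0.814, and Myh11 1.27 ± 0.2, 1.1 ± 0.202, 1.23 ± 0.302 and 1.24 ± 0.296 (SD, same order). Of the meningeal members, Igf2 had 7.34 ± 1.36, 4.21 ± 1.28, 4.38 ± 0.515 and 4.53 ± 2.23 CPM per kb, and Slc6a13 3.43 ± 0.767, 1.52 ± 0.661, 1.44 ± 0.202 and 1.04 ± 0.323. Col1a1 had 1.2 ± 0.212, 0.58 ± 0.146, 0.7 ± 0.0493 and 0.744 ± 0.104 CPM per kb. Col6a1 reached 96.0 ± 25.9 CPM per kb in nucleus accumbens and 5.14 ± 1.55 in hippocampus.

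Prefrontal cortex was set against the mean of the other 3 regions. Of the meningeal members, 18 were higher and 0 lower, where 23.4% of all genes were called higher and 23.1% lower (46.5% in either direction). Their median log2 fold change was 1.19, against -0.02 over all genes. Col1a2, a chain of type I collagen, had 17.1, 17.8, 19.7, 23.9 and 26.4 CPM in prefrontal cortex. Its highest library elsewhere was 13.3 CPM in nucleus accumbens, 5.80 in hippocampus and 8.34 in amygdala. Every prefrontal library lay above every other control library (log2 fold change 1.59, SE 0.12, adjusted p = 6.95e-10). Aldh1a2, the enzyme that makes retinoic acid from retinaldehyde, had 5.84, 6.37, 7.83, 12.4 and 8.39 CPM in prefrontal cortex, against at most 3.98 in nucleus accumbens, 2.66 in hippocampus and 2.59 in amygdala (2.12, SE 0.251, adjusted p = 7.43e-07). Slc22a6, an organic anion transporter, had the largest difference, with 5.09, 5.63, 9.75, 6.20 and 7.53 CPM in prefrontal cortex and at most 3.04 in nucleus accumbens, 1.88 in hippocampus and 2.09 in amygdala (2.67, SE 0.337, adjusted p = 2.38e-06). For both genes, too, the prefrontal libraries did not overlap with the others.

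The other solute carriers, connexin and proteoglycans of the list followed the same direction in prefrontal cortex. Gjb2, a connexin of gap junctions, was higher by 1.67 (SE 0.185), Slc13a4, a sulphate transporter, by 2.12 (SE 0.434), and Slc6a13, a GABA transporter of meningeal cells, by 1.40 (SE 0.188). Fmod and Ogn, small leucine-rich proteoglycans that bind collagen, were higher by 2.18 (SE 0.281) and 1.84 (SE 0.318). The remaining called members were Lum, Islr, Col3a1, Mgp, Igfbp2, Col1a1, Col6a2, Igf2, Serping1 and Fn1, with log2 fold changes of 0.52 to 1.26. Igf2, a growth factor, stood at 0.76 (SE 0.209, adjusted p = 0.00601) and Col1a1 at 0.84 (SE 0.12, adjusted p = 5.25e-06). Not called were Dcn at 0.49 (SE 0.32, adjusted p = 0.23), Bgn, Col6a3 at -0.22 (adjusted p = 0.235) and Col6a1 at -0.37 (adjusted p = 0.333). Of the 12 mural members 4 were called, 1 higher and 3 lower, where 8244 of 17720 genes were called. By fitted value 7 mural members were higher and 5 lower, with a median log2 fold change of 0.1. Anpep, an aminopeptidase on pericytes, was higher by 0.94 (SE 0.106), with 3.41 to 4.55 CPM in prefrontal cortex and at most 2.58 in any other region. Mcam, an adhesion molecule of vessel wall cells, was lower at -1.18 (SE 0.114, adjusted p = 2.94e-08), Notch3, the receptor that maintains smooth muscle, at -0.42 (SE 0.087), and Cspg4, a proteoglycan of pericytes, at -0.28 (SE 0.055).

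Col6a1 and Col6a2, which encode chains of type VI collagen, were the 2 meningeal members called higher in nucleus accumbens. Col6a1 had 405, 458, 509, 500 and 232 CPM in control nucleus accumbens. It had 45.8, 96.4, 60.4, 30.2 and 122 CPM in prefrontal cortex, 26.4, 22.8, 12.9 and 28.0 in hippocampus and 67.5, 123, 98.2, 49.8 and 75.5 in amygdala. Every nucleus accumbens library was above every library of the other regions, and every hippocampal library was below them. Against the mean of the other 3 regions the log2 fold change was 3.05 in nucleus accumbens (SE 0.263, adjusted p = 2.84e-08) and -2.59 in hippocampus (SE 0.376, adjusted p = 2.3e-05). Col6a2 had 1.20 (SE 0.22) in nucleus accumbens, -2.75 (SE 0.313, adjusted p = 9.95e-07) in hippocampus and 0.78 in both prefrontal cortex (SE 0.225) and amygdala (SE 0.223). Col6a3, the third chain, was called lower in hippocampus (-0.56, SE 0.16) and higher in amygdala (0.71, SE 0.133).

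In nucleus accumbens 2 meningeal members were higher, Col6a1 and Col6a2, and 8 lower, where 57% of all genes were called, 30.2% higher and 26.8% lower. The lower ones were Lum (-1.84, SE 0.299), a proteoglycan of collagen fibrils, Igfbp2 (-1.45), Dcn (-1.36), Gjb2 (-1.12), Aldh1a2 (-0.76), Col1a1 (-0.55), Islr (-0.49) and Bgn (-0.26). Control replicate 2 of this region had a meningeal mean of 3.08 log2 CPM and the other 4 had 1.93 to 2.22. Without it, 14 members were called lower. The mural genes Tagln (0.86, SE 0.129), a smooth muscle actin-binding protein, Notch3 (0.70, SE 0.081), Mcam (0.62, SE 0.101) and Pdgfrb (0.16, SE 0.052) were higher in nucleus accumbens, and Acta2, smooth muscle actin, was lower (-0.36, SE 0.136, adjusted p = 0.0296).

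In hippocampus, with 43.5% of all genes called (20.9% higher and 22.6% lower), 3 meningeal members were higher and 8 lower. Islr, a leucine-rich repeat protein of mesenchymal cells, was higher at 1.32 (SE 0.139, adjusted p = 8.8e-08), with 13.9, 14.0, 11.8 and 11.8 CPM in hippocampus. It ranged over 9.25 to 14.6 CPM in prefrontal cortex, 3.41 to 7.20 in nucleus accumbens and 1.68 to 3.09 in amygdala, so that hippocampus and prefrontal cortex overlapped. Lum (0.96) and Bgn (0.34) were the other higher members. Fmod (-1.40), Dcn (-1.09), Col1a2 (-1.03), Col3a1 (-0.89) and Mgp (-0.56), the matrix Gla protein that inhibits calcification, were lower beside the type VI chains. Of the mural genes, Mcam (0.89, SE 0.107) and Acta2 (0.53, SE 0.138) were higher, and Tagln (-0.64, SE 0.155), Notch3 (-0.49), Anpep (-0.34) and Cspg4 (-0.28) lower.

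In amygdala 37.1% of all genes were called, 19.7% higher and 17.4% lower, and 3 meningeal members were higher and 9 lower. Dcn, which encodes the collagen-binding proteoglycan decorin, had 24.7, 6.08, 9.70, 27.1 and 38.9 CPM in control amygdala. It had 8.55, 9.29, 7.80, 15.1 and 8.82 CPM in prefrontal cortex, 3.95, 6.08, 2.76, 2.70 and 3.45 in nucleus accumbens and 4.24, 4.66, 3.75 and 4.70 in hippocampus. Amygdala was the most variable region for this gene, and 2 of its 5 libraries fell within the prefrontal range or below it (log2 fold change 1.96, SE 0.292, adjusted p = 3.86e-05). Col6a2 and Col6a3 were the other higher members. Islr had the largest lower value (-2.06, SE 0.162, adjusted p = 2.55e-09), followed by Ogn (-1.57), Slc22a6 (-1.24), Slc6a13 (-0.94), Aldh1a2 (-0.83), Serping1 (-0.73), an inhibitor of complement activation, Col1a2 (-0.61), Gjb2 (-0.57) and Bgn (-0.28). Cspg4 was higher, with 37.0, 34.7, 33.7, 29.3 and 38.0 CPM against at most 27.5 in any other control library (0.54, SE 0.052, adjusted p = 4.28e-08). Notch3 was higher at 0.21 (SE 0.083, adjusted p = 0.046), and Tagln (-0.47), Anpep (-0.39), Mcam (-0.33), Kcnj8 (-0.29) and Pdgfrb (-0.25) were lower.

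**Figure D1:**
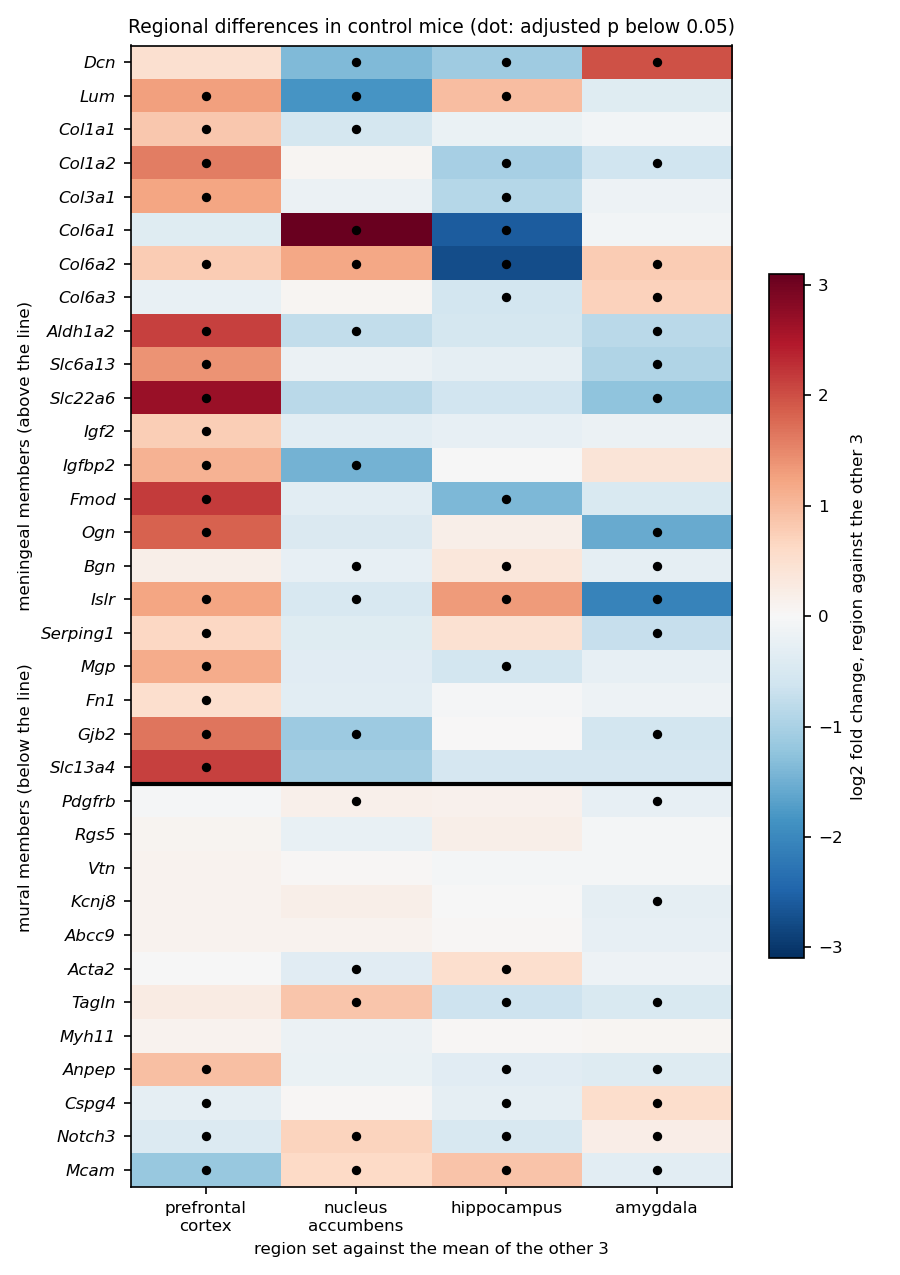
Log2 fold change of each member (rows, meningeal above the line and mural below) in each region of control mice against the mean of the other 3 regions (columns); colour gives the value and a dot marks an adjusted p below 0.05 in edgeR. The prefrontal column is red for 18 dotted meningeal members, Col6a1 is reddest in nucleus accumbens at 3.05, and the rows of Rgs5, Vtn, Abcc9 and Myh11 hold no dot.

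Further genes of the same cells were counted in control mice with lists that share no gene with the members. Over all genes, 46.5% were called in prefrontal cortex, 57% in nucleus accumbens, 43.5% in hippocampus and 37.1% in amygdala, and the counts are read beside these shares. Of 40 tested genes of a wider meningeal list, 27 were higher and 5 lower in prefrontal cortex. Dpp4, a surface peptidase, at 2.77 (SE 0.124) and Col12a1, a fibril-associated collagen, at 1.82 (SE 0.123) had the smallest p. The same list had 6 higher and 13 lower in nucleus accumbens, 7 and 12 in hippocampus, and 8 and 18 in amygdala. Of 28 genes of a wider mural list, 5 were higher and 9 lower in prefrontal cortex, 8 and 4 in nucleus accumbens, and 4 and 4 in both hippocampus and amygdala. Of 13 basement membrane genes the counts in prefrontal cortex were 1 higher and 4 lower, and of 21 genes of TGF-beta and platelet-derived growth factor signalling they were 6 and 7. Of 8 genes of border macrophages, which live in the meninges and around vessels, 6 were higher in prefrontal cortex.

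Within regions, the conditions were compared to ask how defeat, resilience and the response to each drug were reflected in these cells. Of the 4 F-tests over the 7 conditions, 2 called members: Dcn and Col1a2 in hippocampus (adjusted p = 0.00892 and 0.045, with 0.535% of genes called) and Mcam in prefrontal cortex (adjusted p = 0.0329, with 0.137% called). In nucleus accumbens 0 genes were called, and in amygdala 0 members (0.0109% of genes). At an unadjusted p below 0.05, 13 of 22 meningeal and 2 of 12 mural members passed in hippocampus, where 6.14% of genes did. Among the pairwise comparisons of the 4 regions, members were called in 1, ketamine responders against susceptible saline mice in hippocampus.

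In the hippocampus of ketamine responders, 4 meningeal members were higher than in susceptible saline mice, and 0 were lower. They are called beside 0.67% of all genes, or 0.619% for higher alone. Dcn had 8.89, 9.64 and 16.0 CPM in ketamine responders and 3.60, 3.29 and 3.13 CPM in susceptible mice. The groups did not overlap (log2 fold change 1.79, SE 0.31, adjusted p = 0.0115). Aldh1a2 had 3.15, 3.32 and 6.59 CPM in ketamine responders against 1.58, 1.89 and 1.16 CPM in susceptible mice (1.49, SE 0.297, adjusted p = 0.0193). Col1a2 had 8.89, 7.65 and 15.7 CPM in ketamine responders against 5.89, 5.08 and 4.35 CPM in susceptible mice (1.08, SE 0.23, adjusted p = 0.0269). In each of these genes replicate 3 of the responders was far above the other 2. Gjb2 had 5.15, 4.12 and 9.57 CPM in ketamine responders against 3.07, 3.39 and 2.59 CPM in susceptible mice (1.06, SE 0.248, adjusted p = 0.0483).

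Members below the threshold mostly lay on the same side. Of the 22 meningeal members 21 had a higher fitted value in ketamine responders, with a median log2 fold change of 0.84 against 0 over all genes. In 15 of them every responder library was above every susceptible library, which was the case for 7.03% of genes, and 15 had an unadjusted p below 0.05, which 9.98% of genes had. Slc6a13 had 6.65, 5.02 and 11.2 CPM in ketamine responders against 3.38, 3.99 and 4.14 CPM in susceptible mice (1.00, SE 0.237, adjusted p = 0.0507). Igf2 had 48.3, 98.9 and 47.1 CPM in ketamine responders against 21.6, 28.0 and 25.1 CPM in susceptible mice (1.37, SE 0.375, adjusted p = 0.124). Slc13a4 had 5.18, 15.8 and 6.19 CPM in ketamine responders against 2.17, 2.17 and 2.35 CPM in susceptible mice (2.01, SE 0.627, adjusted p = 0.193). For these 3 genes, too, the groups did not overlap, and for Igf2 and Slc13a4 the highest library was replicate 2, the one with the most choroid plexus signal. Col1a1, the other chain of type I collagen, stood at 0.87 (SE 0.237, adjusted p = 0.106).

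The mural list showed no call in this comparison. Its 12 members had a median log2 fold change of 0.25, with 11 fitted higher, 4 at an unadjusted p below 0.05 and 0 with every responder library above every susceptible one. Acta2 had 12.45, 10.4 and 17.3 CPM in ketamine responders against 10.1, 10.8 and 8.82 CPM in susceptible mice, and the groups overlapped (0.43, SE 0.155, adjusted p = 0.272). Pdgfrb had 32.5, 25.8 and 35.7 CPM in ketamine responders against 28.2, 29.1 and 28.0 CPM in susceptible mice. Vtn had 56.3, 48.1 and 72.9 CPM in ketamine responders against 46.8, 48.4 and 46.2 CPM in susceptible mice. In these 3 genes responder replicate 3 was the highest library.

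Ketamine non-responders also had higher fitted values than susceptible mice for most meningeal members, without a call. The comparison called 0.00563% of genes, and 0 members. Dcn had 10.4, 11.9 and 7.09 CPM in ketamine non-responders, again above each susceptible library (log2 fold change 1.56, SE 0.313, adjusted p = 0.182). Aldh1a2 had 3.80, 3.60 and 2.54 CPM, Col1a2 10.2, 9.96 and 7.13 CPM and Gjb2 5.92, 4.86 and 3.48 CPM in the non-responders, with fold changes of 1.10, 0.84 and 0.66. Of the meningeal members 19 were fitted higher (median 0.69), and 15 had every non-responder library above every susceptible one, beside 7.45% of genes. Mural members were fitted higher in 5 and lower in 7 of 12 (median -0.01), the smallest p being that of Vtn (0.17, SE 0.127). The responder and non-responder comparisons share the 3 susceptible libraries.

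Between ketamine responders and non-responders in hippocampus, 0 genes were called (0% of genes). The median log2 fold change was 0.19 over meningeal members, 18 of them fitted higher in responders, and 0.24 over mural members, 12 of 12 fitted higher. Acta2 had 12.45, 10.4 and 17.3 CPM in ketamine responders against 9.75, 8.13 and 8.52 CPM in ketamine non-responders, without overlap (0.60, SE 0.159, adjusted p = 0.699). It was the 1 mural member with that order, beside 5.24% of genes. At an unadjusted p below 0.05 there were 4 mural and 0 meningeal members, beside 6.94% of genes. Among meningeal members Islr had the smallest p (-0.26, SE 0.153).

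**Figure D2:**
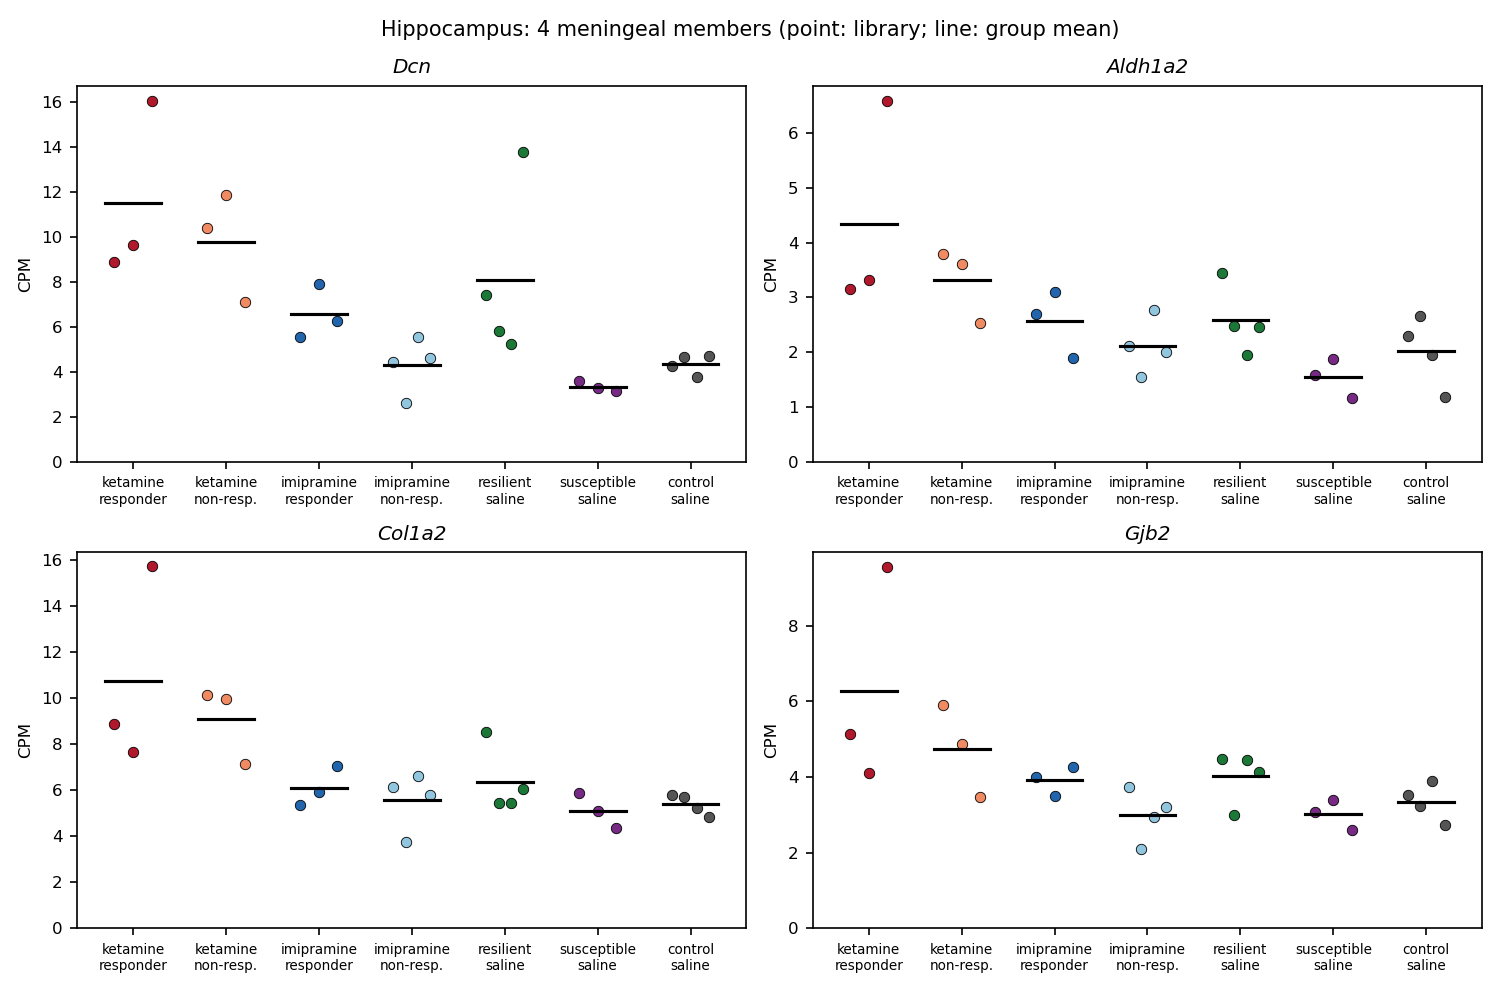
CPM of Dcn, Aldh1a2, Col1a2 and Gjb2 in each hippocampal library (points) by condition, with the group mean as a line. Ketamine responder replicate 3 is the highest point for each gene, and each ketamine responder library lies above the 3 susceptible libraries.

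Calls in the hippocampus rested on few libraries. Without ketamine responder replicate 3, 0 members were called against susceptible mice (Dcn 1.47, adjusted p = 0.117), and 0 were called without any 1 of the 3 susceptible libraries (Dcn, adjusted p = 0.0759 to 0.109). Without responder replicate 1 or 2, 7 meningeal members were called. The sample numbers in the titles fall into 5 consecutive series, and responder replicate 1 and susceptible replicate 1 lie in the first of them, responder replicate 3 and susceptible replicates 2 and 3 in the fifth. Dcn had 8.89 CPM in the responder library against 3.60 in the susceptible library within the first series, and 16.0 against 3.29 and 3.13 within the fifth. With the series as a factor in the fit, Dcn stood at 1.94 (adjusted p = 0.00641), and 9 meningeal and 3 mural members were called.

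Markers of neighbouring tissue moved with the same groups. Of 14 choroid plexus genes, 14 were fitted higher in ketamine responders than in susceptible mice (median log2 fold change 3.58), with 0 called and Otx2, a transcription factor of that epithelium, at the smallest p (3.60, SE 0.985, adjusted p = 0.123). Their summed level was 55.3 to 2668 CPM in ketamine responders, 44.4 to 1917 CPM in ketamine non-responders, 47.9 to 54.1 CPM in susceptible mice and 54.1 to 60.1 CPM in controls. Kcnj13, a potassium channel of the choroid plexus, was at 0 in a non-responder and in a susceptible library, and no marker was at 0 in every library of a group. Responder replicate 3, with the highest Dcn, had a choroid mean of 0.21 log2 CPM, within the control range of 0.03 to 0.37. Without the 4 libraries high in choroid plexus genes, which leaves that replicate as the lone responder, assumed to vary like the others, 10 meningeal members were called against susceptible mice (Dcn 2.25, adjusted p = 0.000569) and 5 mural ones.

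Thalamic markers, a list chosen after the values were seen, also moved. Of 8 such genes, 8 were called higher in ketamine responders (median 3.27), and Tnnt1, a thalamic troponin gene, was called in non-responders (3.22, SE 0.485). Their summed level was 169 to 784 CPM in ketamine responders, 156 to 190 CPM in ketamine non-responders, 47.9 to 50.2 CPM in susceptible mice and 45.3 to 199 CPM in controls. Gbx2, a thalamic homeobox gene, was at 0 in a susceptible library. Responder replicate 3, with the highest Dcn (16.0 CPM), also had the highest thalamic level (784 CPM) and the lowest summed level of hippocampal markers, 663 CPM against 867 to 1176 CPM in the other libraries of the region. Control replicate 1, with 199 CPM of these markers, had 4.24 CPM of Dcn, within the 3.75 to 4.70 CPM of the other controls. Resilient replicate 4 had 13.8 CPM of Dcn at 49.5 CPM of thalamic and 46.02 CPM of choroid plexus markers. All 6 ketamine libraries were high in the thalamic list. These single libraries were picked from 24. Over all 24, deviations from the group mean had a Pearson r of 0.457 between the thalamic and meningeal means. Between the choroid plexus and meningeal means r was 0.226. The part of the thalamic and choroid plexus markers in the meningeal differences was not tested.

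**Figure D3:**
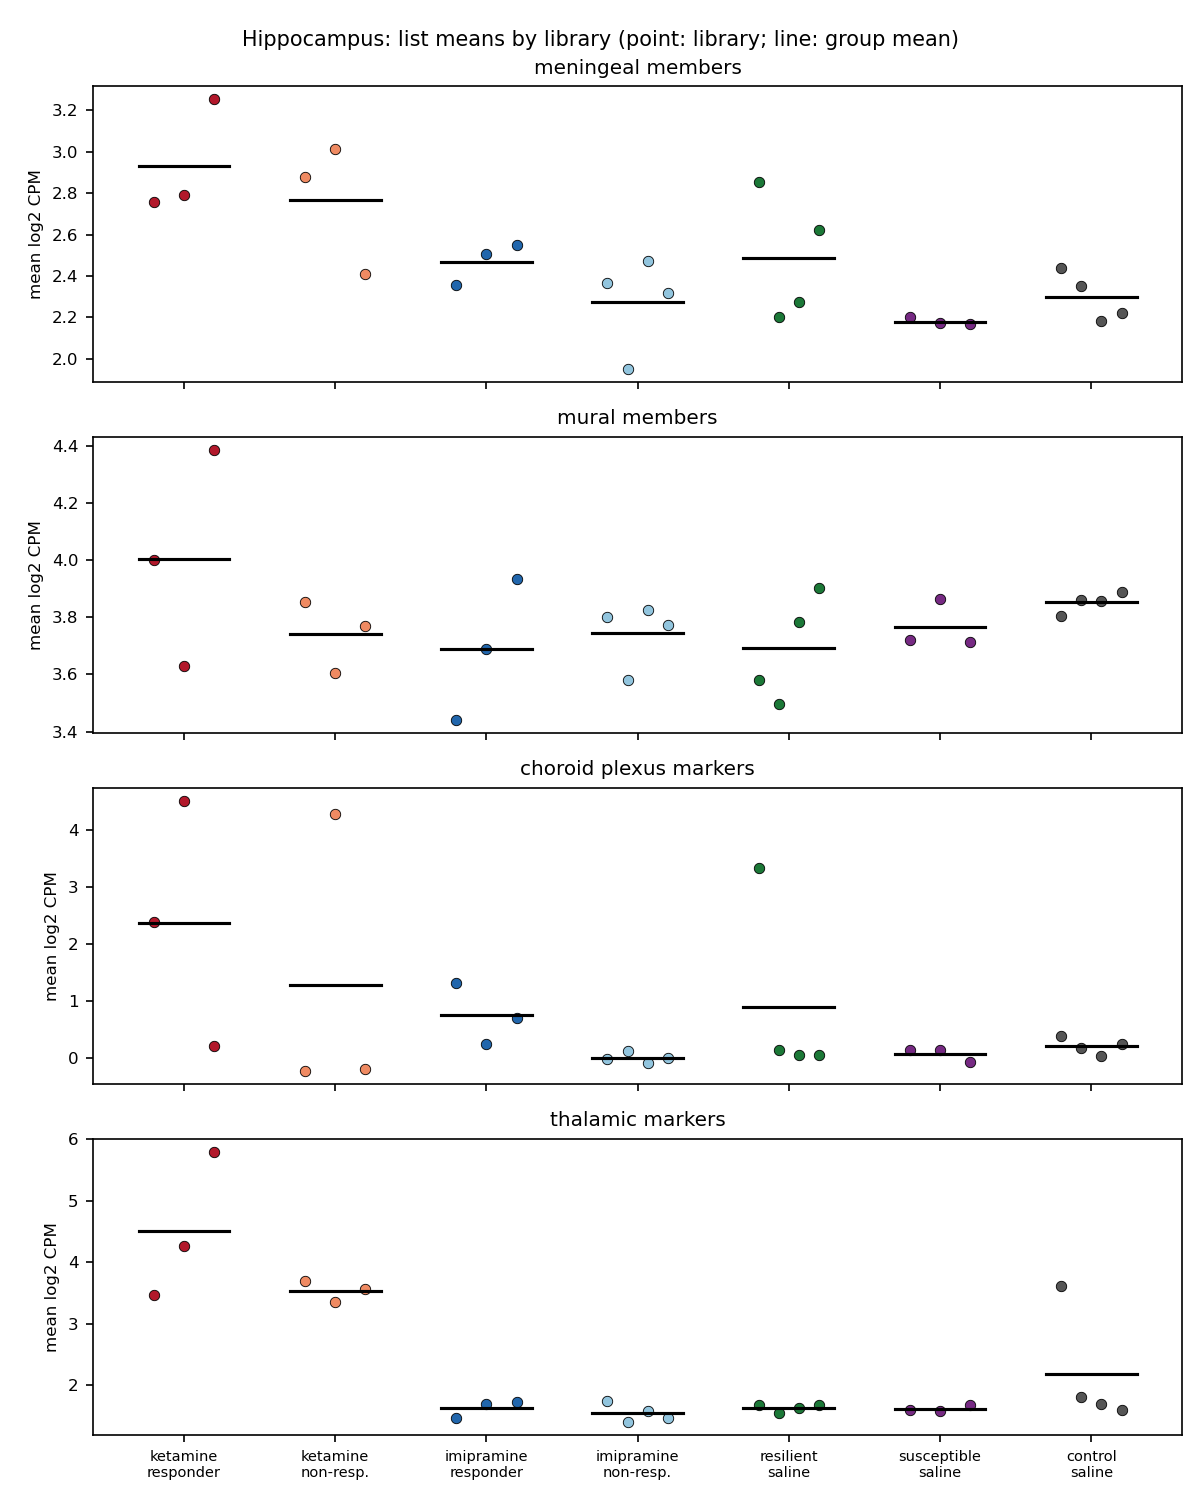
Mean log2 CPM of the 22 meningeal members, the 12 mural members, 14 choroid plexus markers and 8 thalamic markers in each hippocampal library (points) by condition, with the group mean as a line. The 6 ketamine libraries and control replicate 1 stand above 3 on the thalamic scale, and 4 libraries stand above 2 on the choroid plexus scale.

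Beyond the members, 1 gene of the wider meningeal list was called in ketamine responders, Fbln5, an elastic fibre protein (1.19, SE 0.233, adjusted p = 0.0187). Of 39 tested genes of that list 36 were fitted higher, as were 24 of 28 wider mural genes, 9 of 13 basement membrane genes and 10 of 21 signalling genes, with 0 called in the last 3 lists. Their smallest p belonged to Pln, phospholamban of smooth muscle (1.23, SE 0.398), Nid2, nidogen of basement membranes (0.87, SE 0.214, adjusted p = 0.0622), and Mrtfa, a coactivator of smooth muscle genes (-0.41, SE 0.112). Of 18 endothelial genes 16 and of 8 border macrophage genes 8 were fitted higher, with 0 called.

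In the other hippocampal groups 0 genes were called (0% of genes) against their saline group. Dcn had 5.56, 7.88 and 6.24 CPM in imipramine responders, above each of the 3 susceptible libraries (0.96, SE 0.316, adjusted p = 1), and 9 meningeal members had that order, beside 3.13% of genes. In imipramine non-responders it had 4.45, 2.61, 5.54 and 4.63 CPM, and the smallest p was that of Aldh1a2 (0.44, SE 0.291). Resilient mice had 7.40, 5.80, 5.25 and 13.8 CPM of Dcn, each above all susceptible libraries and all control libraries (4.24, 4.66, 3.75 and 4.70 CPM). In resilient mice 4 meningeal members lay wholly above susceptible mice, beside 2.31% of genes. Dcn was the 1 meningeal member wholly above controls, beside 0.557% of genes. Between susceptible mice and controls 0 members had an unadjusted p below 0.05, beside 0.935% of genes. Ogn stood at -0.34 (SE 0.213) and Acta2 at -0.27 (SE 0.148), the smallest p of each list. Among mural members the smallest p were those of Cspg4 in resilient against control mice (-0.17, SE 0.0994), Notch3 in resilient against susceptible mice (-0.28, SE 0.228), and Pdgfrb in imipramine responders (-0.15, SE 0.116) and non-responders (-0.17, SE 0.108) against susceptible mice. Between imipramine responders and non-responders they were those of Dcn (0.59, SE 0.292) and Cspg4 (-0.16, SE 0.107).

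Mcam was the 1 member called over the conditions in prefrontal cortex. It had 23.1, 17.6 and 18.9 CPM in ketamine responders, 19.4, 14.4 and 16.1 CPM in ketamine non-responders and 12.3, 12.7 and 10.7 CPM in susceptible saline mice. Neither ketamine group overlapped with susceptible mice. Lying wholly above them was the case for 5.54% of genes in responders and 5.13% in non-responders, and for 1 of the 12 mural members in each. The F-test over the 7 conditions called it, while against susceptible mice it stood at 0.73 (SE 0.14, adjusted p = 0.126) in responders and 0.48 (SE 0.141, adjusted p = 0.899) in non-responders. Each of these comparisons called 0% of genes. The remaining prefrontal groups ranged over 13.2 to 14.1 CPM in imipramine responders, 10.4 to 14.2 in imipramine non-responders, 11.0 to 15.6 in resilient mice and 10.3 to 14.1 in controls. The F-test call was lost without ketamine responder replicate 1 (adjusted p = 0.463) and when the series of sample numbers entered the fit (adjusted p = 0.0564), whereas DESeq2 called Mcam in responders against susceptible mice (0.74, adjusted p = 0.00234).

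In nucleus accumbens Mcam had 35.1, 40.6 and 39.3 CPM in ketamine responders and 37.8, 40.0 and 38.9 CPM in ketamine non-responders, against 28.2, 29.9 and 30.5 CPM in susceptible mice. Both ketamine groups lay above every other library of the region, the highest of which was a control at 34.5 CPM. Against susceptible mice alone, 6.09% of genes lay wholly above in responders and 4.27% in non-responders. Oligodendrocyte markers moved with these groups: 10 of 10 were fitted higher in each ketamine group than in susceptible mice, with 0 called. Their summed level was 5850 to 8409 CPM in ketamine responders, 6769 to 7392 CPM in ketamine non-responders, 5056 to 6993 CPM in susceptible mice and 4693 to 5851 CPM in controls, and their part in the Mcam difference was not tested. The log2 fold change was 0.37 (SE 0.091) in responders and 0.40 (SE 0.0907) in non-responders (adjusted p = 1 in both). The F-test did not call it in edgeR (adjusted p = 0.66), and DESeq2 did. In hippocampus Mcam had 35.0, 38.7 and 44.5 CPM in ketamine responders and 33.0, 39.9 and 26.8 CPM in ketamine non-responders, against 25.7, 37.2 and 35.3 CPM in susceptible mice. In amygdala it had 18.2, 21.0 and 22.02 CPM in ketamine responders and 23.5, 23.1 and 22.1 CPM in ketamine non-responders, against 20.1, 18.2 and 18.1 CPM in susceptible mice. The hippocampal groups overlapped. Whether the Mcam differences varied between regions did not pass (adjusted p = 0.541).

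**Figure D4:**
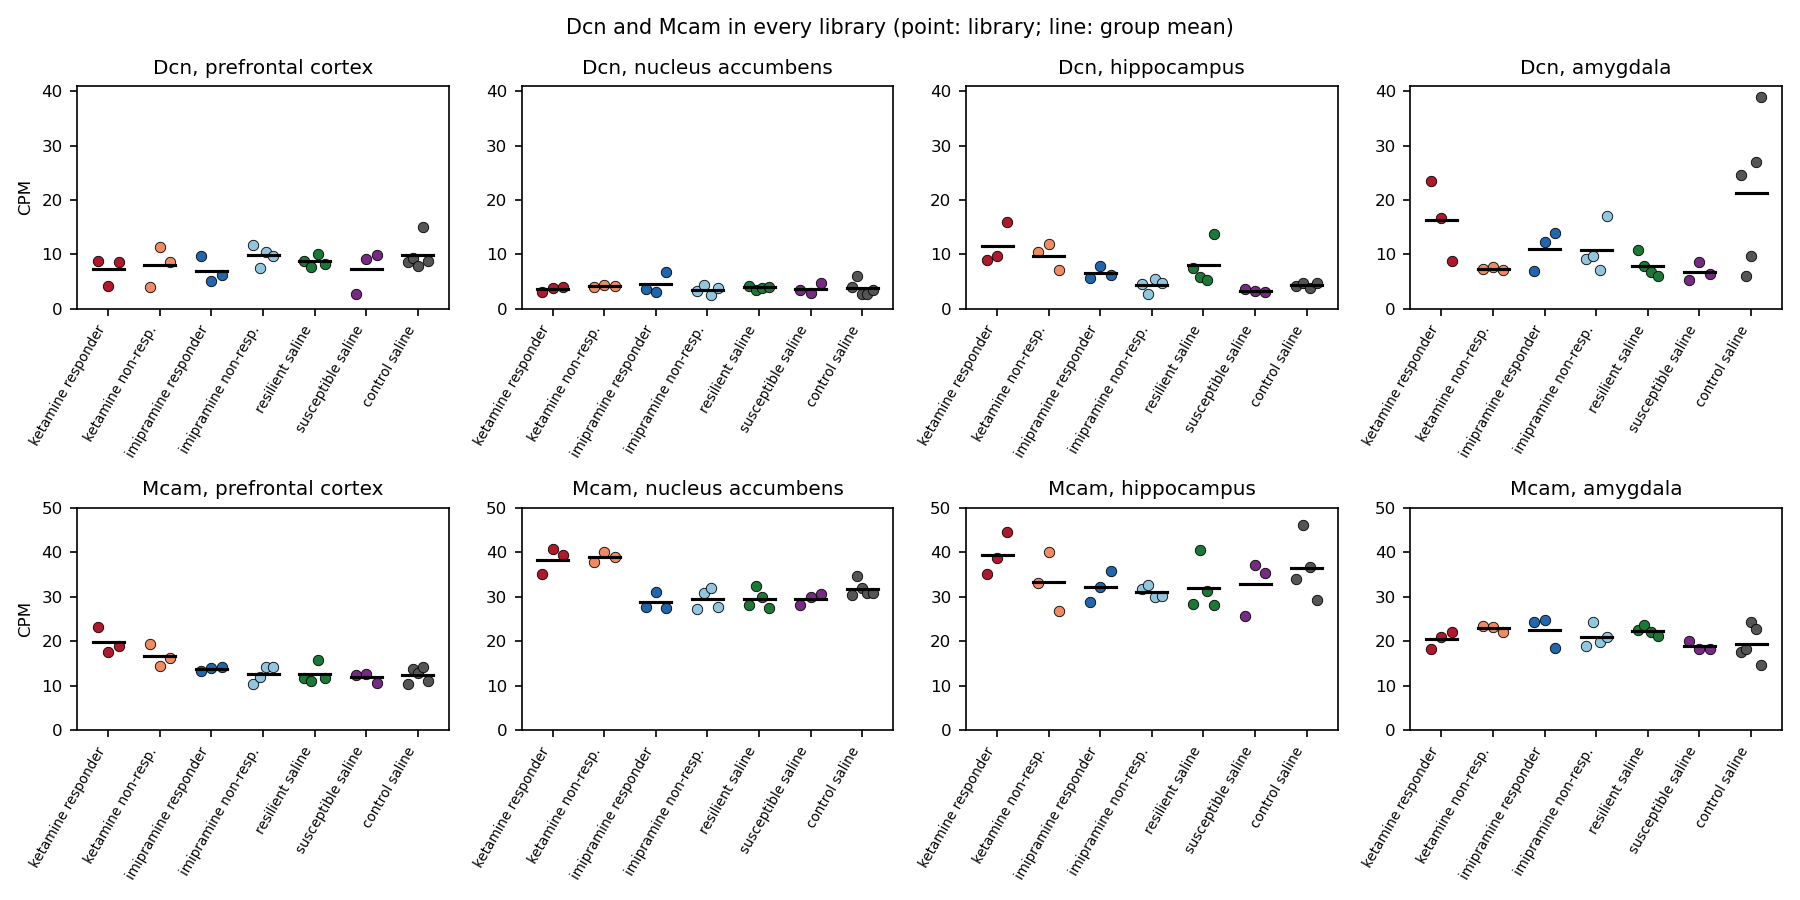
CPM of Dcn (upper row) and Mcam (lower row) in each library (points) by condition in the 4 regions, with the group mean as a line. Dcn spreads most among amygdala controls, at 6.08 to 38.9 CPM, and the 6 ketamine libraries of nucleus accumbens lie above the others on Mcam.

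No other member was called in prefrontal cortex or nucleus accumbens, where the pairwise comparisons called 0% of genes. In prefrontal cortex susceptible mice had 20 of 22 meningeal members fitted below controls (median -0.37), with Aldh1a2 at 1.33, 6.82 and 6.56 CPM in susceptible mice against 5.84 to 12.4 CPM in controls (-0.74, SE 0.398, adjusted p = 1). Susceptible replicate 1 stood apart, with a meningeal mean of 2.17 log2 CPM. The other susceptible libraries had 3.44 and 3.40, and controls 3.21 to 3.70. Of the 12 mural members 11 were fitted lower in susceptible mice than in controls (median -0.07). Against susceptible mice 12 of 12 were fitted higher in ketamine responders (median 0.22), ketamine non-responders (0.15) and imipramine responders (0.17). In imipramine non-responders 10 were fitted higher, and in resilient mice 9. These comparisons share the susceptible libraries. The smallest p among meningeal members belonged to Col6a2 in resilient against control mice (0.63, SE 0.274, adjusted p = 0.495), and against susceptible mice to Islr in resilient mice (0.36, SE 0.179), Gjb2 in ketamine responders (0.52, SE 0.414), Ogn in ketamine non-responders (0.77, SE 0.611), Fmod in imipramine responders (0.71, SE 0.522) and Islr in imipramine non-responders (0.38, SE 0.18). Between drug responders and non-responders it belonged to Lum for ketamine (0.46, SE 0.336) and Islr for imipramine (-0.25, SE 0.178). Among mural members it belonged to Anpep in susceptible (-0.35, SE 0.208) and Abcc9 in resilient (-0.13, SE 0.108) against control mice, to Anpep in resilient (0.44, SE 0.213), Mcam in imipramine responders (0.21, SE 0.143) and Kcnj8 in imipramine non-responders (0.19, SE 0.142) against susceptible mice, and to Mcam for ketamine (0.25, SE 0.137) and Pdgfrb for imipramine (0.15, SE 0.1) between responders and non-responders.

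In nucleus accumbens the medians of the meningeal list lay between -0.19 and 0.001 in the 9 comparisons. Mgp had 4.11, 5.26 and 20.7 CPM in imipramine responders, against 4.18, 5.50, 5.40 and 5.23 CPM in imipramine non-responders and 4.87, 4.96 and 8.43 CPM in susceptible mice. The difference rested on replicate 3, the library low in basement membrane genes: it was 0.98 (SE 0.388, adjusted p = 0.224) against non-responders and -0.11 without that library. Vtn, at the smallest mural p in the same comparison (0.32, SE 0.17), stood at -0.01 without it. Other smallest p were those of Serping1 (-0.33, SE 0.254) and Mcam (-0.09, SE 0.0816) in susceptible and Col6a2 (-0.37, SE 0.246) and Mcam (-0.11, SE 0.0748) in resilient against control mice. Against susceptible mice they were those of Col6a3 (0.49, SE 0.325) and Kcnj8 (0.14, SE 0.166) in resilient mice, Slc22a6 in ketamine responders (-0.98, SE 0.682), Fmod in ketamine non-responders (-0.56, SE 0.452), Mgp (0.72, SE 0.42) and Vtn (0.33, SE 0.183) in imipramine responders, and Slc13a4 (-1.07, SE 0.617) and Acta2 (-0.26, SE 0.402) in imipramine non-responders. Between ketamine responders and non-responders they were those of Col6a3 (-0.30, SE 0.342) and Pdgfrb (0.12, SE 0.138).

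In amygdala the pairwise comparisons called 0% of genes, and Dcn had the lowest F-test p of the meningeal members (adjusted p = 0.59). Dcn had 5.32, 8.595 and 6.43 CPM in susceptible mice and 10.8, 7.91, 6.66 and 5.96 CPM in resilient mice, against 24.7, 6.08, 9.70, 27.1 and 38.9 CPM in controls. Susceptible mice overlapped with 1 of the 5 control libraries and resilient mice with 2 (-1.65, SE 0.46, adjusted p = 1 for susceptible mice and -1.44, SE 0.409, adjusted p = 0.332 for resilient mice). In ketamine responders it had 23.4, 16.7 and 8.78 CPM, and in ketamine non-responders 7.32, 7.64 and 7.05 CPM. In imipramine responders it had 6.92, 12.2 and 14.0 CPM, and in imipramine non-responders 9.19, 9.71, 7.03 and 17.1 CPM. Dcn was 1 of 5 meningeal members fitted lower in resilient mice than in controls, while 17 of 22 were fitted higher (median 0.37). In that comparison 7 of the 22 had an unadjusted p below 0.05, beside 5.61% of genes. In susceptible mice 18 of 22 were fitted below controls (median -0.18), and 2 had an unadjusted p below 0.05, beside 1.3% of genes.

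Resilient mice had higher meningeal values than susceptible mice in amygdala, without a call. Of the 22 members 22 were fitted higher (median 0.58), and 10 had an unadjusted p below 0.05, beside 1.38% of genes, but only 1 had every resilient library above every susceptible one, beside 1.77% of genes. Slc6a13 had 5.37, 5.88, 2.82 and 3.96 CPM in resilient mice against 3.04, 2.64 and 2.12 CPM in susceptible mice, and the groups overlapped (0.80, SE 0.25, adjusted p = 1). Resilient replicates 1 and 2 had the highest meningeal means of the group, 2.84 and 3.04 log2 CPM, against 2.08 and 2.45 in the other 2 and 2.04 to 2.18 in susceptible mice. Those 2 libraries also had the highest striatal marker sums of the group, 2506 and 1826 CPM, where the other 2 resilient libraries had 856 and 1670 CPM and susceptible mice 1005 to 1444 CPM. Their oligodendrocyte marker sums were 4461 and 4430 CPM, against 3169 to 3687 CPM in susceptible mice. Of the striatal markers 9 of 9 and of the oligodendrocyte markers 10 of 10 were fitted higher in resilient mice, with 0 called, and their part in the meningeal values was not tested. Mural members had a median of 0.19, with Mcam at the smallest p (0.25, SE 0.141).

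Drug groups of the amygdala gave scattered differences. Col1a1 had 7.79, 8.20 and 7.55 CPM in ketamine responders against 4.99, 4.40 and 4.43 CPM in susceptible mice, without overlap (0.78, SE 0.222, adjusted p = 0.87). Cspg4 had 45.3, 40.3 and 49.1 CPM in ketamine responders against 35.3, 31.5 and 29.3 CPM in susceptible mice, again without overlap (0.50, SE 0.207). Of the members, 5 meningeal and 1 mural had that order, beside 5.77% of genes. Mgp had 6.92, 34.6 and 6.56 CPM in imipramine responders against 6.18, 5.93 and 6.00 CPM in susceptible mice (1.43, SE 0.439, adjusted p = 0.395), and Tagln had 7.05, 21.3 and 7.02 CPM in imipramine responders against 5.54, 5.23 and 4.51 CPM in susceptible mice (1.23, SE 0.427). Replicate 2, the highest in both, is the library low in basement membrane genes. In imipramine responders 11 meningeal members lay wholly above susceptible mice, beside 3.39% of genes. Replicate 1 of these responders had 835 CPM of choroid plexus markers, against 55.4 to 60.6 CPM in susceptible mice, and replicate 2 had 3349 CPM of striatal markers, against 1005 to 1444 CPM in susceptible mice. The part of these markers in the count was not tested. In ketamine non-responders 7 meningeal and 4 mural members lay wholly above susceptible mice, beside 4.82% of genes. Slc13a4 had 0.824, 17.3 and 0.618 CPM in ketamine responders and 0.886, 0.621 and 0.743 CPM in ketamine non-responders (3.06, SE 1.04). Without responder replicate 2, whose choroid plexus mean was 4.87 log2 CPM, the difference was -0.06.

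The remaining smallest p of the amygdala belonged to Col3a1, type III collagen (0.85, SE 0.352), and Myh11 (0.52, SE 0.263) in ketamine non-responders, and to Serping1 (0.60, SE 0.312) and Tagln (0.74, SE 0.402) in imipramine non-responders, each against susceptible mice. Between imipramine responders and non-responders they belonged to Mgp (1.33, SE 0.401) and Acta2 (0.76, SE 0.294), and between ketamine responders and non-responders Cspg4 had the smallest mural p (0.40, SE 0.207). Myh11 (-0.20, SE 0.237) in susceptible and Mcam (0.20, SE 0.123) in resilient against control mice completed the mural list.

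Whether a condition difference itself varied between regions was tested in 1 fit of all 99 libraries. Dcn was called (adjusted p = 0.0197), beside 0.741% of 19024 genes, and it was the 1 member called of 34. Without the filter on low counts it was not called (adjusted p = 0.0504). The 3 amygdala controls highest in Dcn, replicates 1, 4 and 5, had 22.6, 29.6 and 27.2 CPM of ependymal markers, against 10.3 and 11.0 CPM in replicates 2 and 3, and replicate 4 had 820 CPM of choroid plexus markers. The part of these markers in the Dcn difference was not tested. Among single comparisons, the difference between resilient and control mice varied most for Dcn (adjusted p = 0.054, with 0.121% of genes called), being 0.93 (SE 0.271) in hippocampus and -1.44 (SE 0.409) in amygdala. The difference between ketamine responders and susceptible mice gave an adjusted p of 0.246 for Dcn.

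Members were also described by how they moved together among libraries of the same group, as Pearson r of deviations from the group mean. These points share library, depth and dissection, and the values carry no test. The median r over the 231 pairs of meningeal members was 0.78 in prefrontal cortex (25 libraries), 0.49 in nucleus accumbens (25), 0.30 in hippocampus (24) and 0.30 in amygdala (25). Over the 66 mural pairs it was 0.51, 0.34, 0.55 and 0.20 in the same order, and between the lists 0.23, 0.28, 0.24 and 0.07. Col6a1 and Col6a2 were each other's nearest partner in every region, with r of 0.94, 0.86, 0.86 and 0.83, while the median r of Col6a1 to its own list was -0.32, -0.23, 0.16 and 0.10. Igf2 was nearest to Slc13a4 in prefrontal cortex (0.96), hippocampus (0.86) and amygdala (0.91). Fn1, which encodes fibronectin and was listed as meningeal, was nearest to a mural member in every region: Anpep in prefrontal cortex (0.83), Pdgfrb in nucleus accumbens (0.87) and amygdala (0.71), and Myh11 in hippocampus (0.88). Mcam had a median r to its own list of 0.36, 0.02, -0.06 and -0.01. For Dcn the median r to its own list was 0.802, 0.615, 0.488 and -0.07. In amygdala its nearest partner was Fn1, at 0.385, so Dcn did not move with the meningeal list among the libraries of that region.

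**Figure D5:**
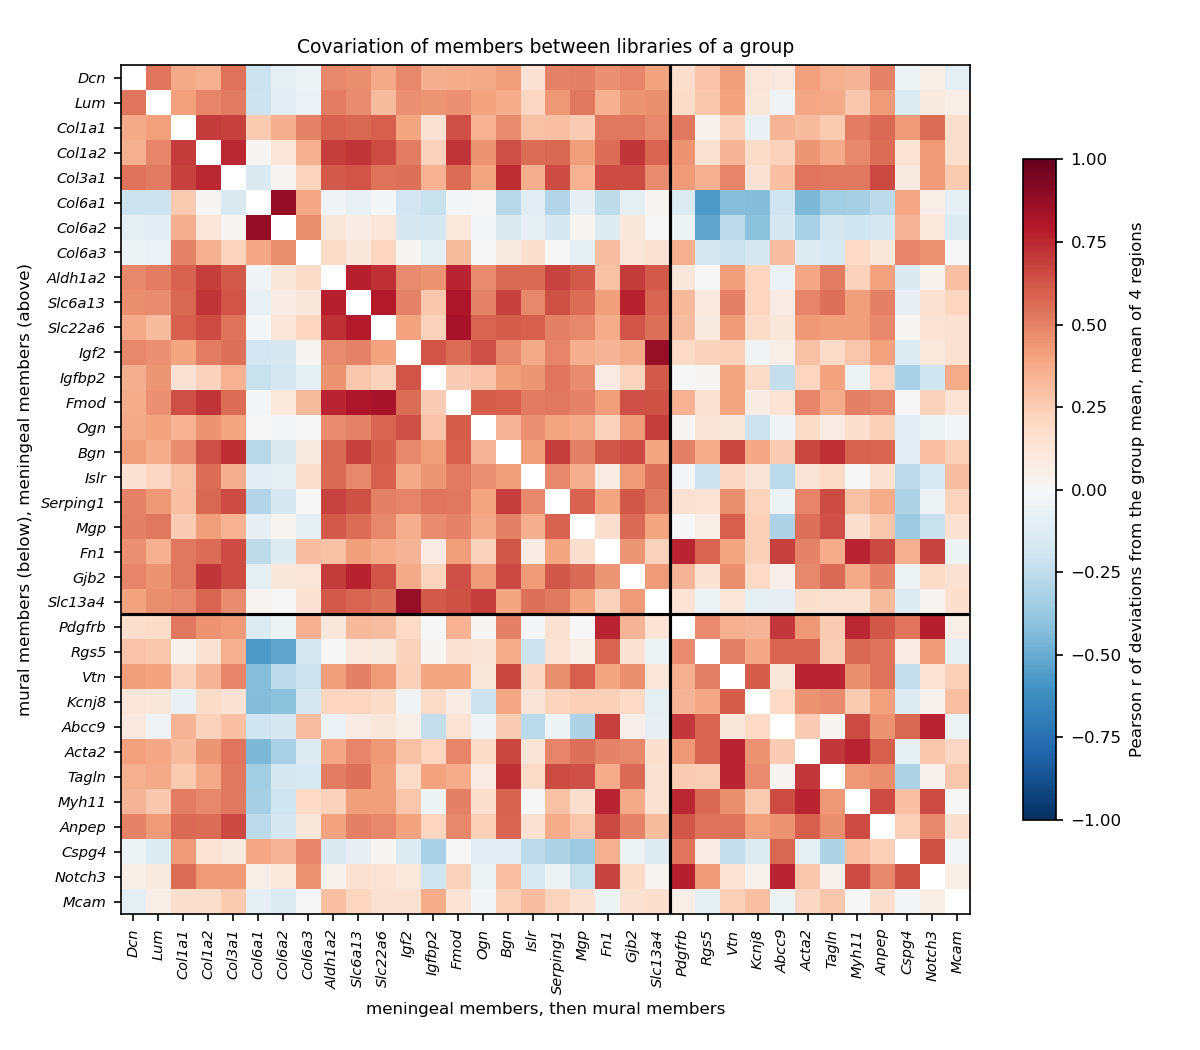
Pearson r between members (rows and columns, meningeal first, mural after the lines) of deviations from the group mean, averaged over the 4 regions. The meningeal block is mostly red except for the Col6a1 and Col6a2 rows, the pair of which stands out as a dark square, and much of the Col6a3 row. Within the block, Col6a3 runs from -0.095 with Igfbp2 to 0.494 with Col1a1. The Fn1 row reaches 0.76 with the mural members Pdgfrb and Myh11.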

How the data were processed

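RNA was sequenced from 99 brain libraries, each of tissue from 2 pooled mice. Per the labels' protocols, poly-A RNA was made into TruSeq v2 libraries, which do not mark strand, and read as 50 bp pairs. Per the submitters' processing notes, Bowtie2 2.1.0, TopHat2 2.0.9, HTSeq 0.6.0 and build NCBIM37 were used; strand settings are not given in the sources used here. The deposited table holds raw read counts per Ensembl gene. Symbols came from a table of gene names (86.6% of 37991 IDs matched).

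From these counts, edgeR 4.0.16 (R 4.3.3) fitted each region alone, and the 19 control libraries for regions: TMM scaling, filterByExpr with a minimum count of 10, robust quasi-likelihood F-tests, and Benjamini-Hochberg adjustment over all genes tested, called below 0.05. Log2 CPM used a prior count of 2. Exon length per gene (GENCODE M21) gave CPM per kb. No 2 of 132 replicate pairs were identical, and none agreed within sampling noise. The members and lists were chosen with earlier results of these data known, and no test over a list was made.

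Named genes were Dcn, Col1a1, Col1a2, Slc6a13, Igf2, Aldh1a2, Pdgfrb, Rgs5, Vtn, Acta2, Tagln and Myh11, every member called, and the member of each list with the smallest p or, in control regions, the largest difference. Alternatives were DESeq2 1.42.0, RLE scaling, no filter, the 5 series of sample numbers as a factor, all libraries in 1 fit, each library left out and, added after seeing the data, libraries standing apart left out. The scripts were tested on simulated data.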

Additional observations from a re-analysis of the deposited data

Results flagged for a closer look

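Single libraries stood far from their group in 11 of 192 checks by Dixon's criterion, which chance meets in about 1 check in 20. Each check took 1 list mean or 1 gene in 1 group of 4 or 5 libraries, so many checks share libraries. Smaller groups, which include every ketamine, imipramine responder and susceptible saline group, were not examined. In nucleus accumbens, control replicate 2 had a meningeal mean of 3.08 log2 CPM against 1.93 to 2.22 in the other controls, and 13.3 CPM of Col1a2 against 7.93 to 9.02. In the same region resilient replicate 4 had 6.58 CPM of Col1a1 against 3.24 to 3.63.

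In prefrontal cortex, resilient replicate 3 had 24.5 CPM of Acta2 against 7.03 to 7.96, and 11.2 CPM of Gjb2 against 6.96 to 7.48. Imipramine non-responder replicate 2 had 6.12 CPM of Slc6a13 against 11.2 to 12.6, and 14.5 CPM of Igf2 against 44.8 to 46.5. Control replicate 4 had 15.1 CPM of Dcn against 7.80 to 9.29.

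In hippocampus, control replicate 4 had 3.30 CPM of Slc6a13 against 4.46 to 4.47, and imipramine non-responder replicate 1 had 10.9 CPM of Acta2 against 9.25 to 9.44. In amygdala, control replicate 3 had 22.9 CPM of Pdgfrb against 24.2 to 24.5. The condition differences of Dcn varied between regions, with an adjusted p of 0.0197 in edgeR's quasi-likelihood F-test over all 99 libraries.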

How the results depend on the processing

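No paired analysis was possible because the labels give no replicate numbers; the series of sample numbers in the titles entered as a factor instead. RLE scaling changed 0 counts of members called. In control mice, the mural counts moved as follows: lower in nucleus accumbens, 1, became 2 with DESeq2 and 0 with the sample-number series or all libraries in 1 fit; with all libraries, hippocampus had 1 higher and 2 lower and amygdala 1 higher and 3 lower, and with the series amygdala had 1 higher. Leaving out a control gave 1 to 2 mural members higher in prefrontal cortex, 6 to 14 meningeal and 0 to 2 mural lower in nucleus accumbens, 5 to 8 meningeal lower in hippocampus, and 5 to 10 meningeal lower, 1 to 2 mural higher and 3 to 6 mural lower in amygdala. The region call was lost for Igf2 in 3 and for Fn1 in 11 of 19 such fits.

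In hippocampus the F-test called 7 meningeal members with DESeq2, 1 without the filter, and 7 meningeal and 2 mural without the 4 libraries high in choroid plexus markers (1 to 4 meningeal with a library left out). Ketamine responders against susceptible mice gave 8 meningeal members with DESeq2, 9 and 3 mural with the series, and 10 and 5 mural without the 4 libraries (0 to 7 meningeal with a library left out). Non-responders gave 1 with DESeq2 (0 to 1). Every fit without the 4 libraries left replicate 3 as the lone hippocampal ketamine responder, assumed to vary like the others. Counts from those fits, here and for the interaction below, are read with that limit. Over the 9 comparisons there were 9 meningeal calls with DESeq2, 9 and 3 mural with the series, and 12 and 8 mural without the 4 libraries (0 to 7). Gjb2 was not called without the filter (adjusted p = 0.0584).

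In prefrontal cortex the mural F-test count was 0 with the series (0 to 1 with a library left out), and ketamine responders against susceptible mice, and so the 9 comparisons, gave 1 with DESeq2 and 1 with the series (0 to 1). DESeq2 called 1 mural member in nucleus accumbens and 1 meningeal in amygdala by F-test. With a library left out, imipramine responders against non-responders gave 0 to 1 meningeal member in nucleus accumbens and 0 to 1 meningeal and 0 to 2 mural in amygdala, as did the 9 comparisons there. The interaction count was 0 without the filter; resilient against control gave 1 without the imipramine libraries that stood apart, and ketamine responders against susceptible gave 1 without the 4 libraries. Notch3 turned to 0.004 with the series in hippocampus (resilient against susceptible mice).

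Differences that changed sign when a library was left out were, in nucleus accumbens against susceptible mice, Kcnj8 in resilient mice (-0.001 to 0.32), Slc22a6 in ketamine responders (-1.40 to 0.38), Fmod in ketamine non-responders (-0.94 to 0.52), Mgp (-0.39 to 1.10) and Vtn (-0.018 to 0.47) in imipramine responders, and Slc13a4 (-1.48 to 0.39) and Acta2 (-0.52 to 0.38) in imipramine non-responders. Between imipramine responders and non-responders they were Mgp (-0.11 to 1.37) and Vtn (-0.01 to 0.47), and in amygdala Slc13a4 between ketamine groups (-0.064 to 3.60). The causes were not tested. With 3 to 5 libraries a group, 1 library can decide a call.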
